A study of Mus musculus with 18 samples.

Results

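The transcriptional response to transfected DNA in cells that had received both aminooxyacetic acid (AOA) and aspartate was read from 6 of the 18 RNA-seq libraries of the series, 3 of the group HT-DNA+AOA+Asp and 3 of the group AOA+Asp. They are the libraries that their labels place in these groups, and no measured value entered the choice. Cells were L929, an established mouse fibroblast line. AOA, an inhibitor of aminotransferases, was given at 0.5 mM from 1 h before the DNA, aspartate at 20 mM, and HT-DNA (herring testis DNA, used to mimic DNA in the cytosol) at 0.5 µg/ml for 6 h. The 4 other groups of 3 libraries are Mock (DMSO), HT-DNA, AOA and HT-DNA+AOA. Both groups compared here therefore carried AOA and aspartate, and HT-DNA set them apart. No group received aspartate without AOA, so an effect of aspartate by itself cannot be read from these libraries. The sources do not say whether groups without HT-DNA received the lipid transfection reagent, so the DNA and its carrier cannot be told apart. Replicates are described as biological ones of a single line, and p-values measure the spread between them.

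Double-stranded DNA in the cytosol is sensed by cGAS, which makes the second messenger cGAMP. cGAMP activates STING, TBK1 and the transcription factor IRF3, which drives interferon-β and a first set of antiviral genes and chemokines. Secreted interferon then acts through its receptor and STAT and IRF factors on interferon-stimulated genes, whose promoters often carry an interferon-stimulated response element. Aspartate is a building block of pyrimidines and asparagine, and cells make it through the aminotransferases that AOA blocks.

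The 6 libraries held between 20140422 and 22906014 counts each, and the 18 libraries between 17901546 and 24057284. Replicates of AOA+Asp differed from each other by a chi-square of 6.25 to 8.88 per degree of freedom and those of HT-DNA+AOA+Asp by 2.78 to 4.90, against 18.3 to 67.2 in the HT-DNA+AOA group and at most 13.3 in the others. Of 10 fibroblast markers, Vim and S100a4 were abundant, with 2300 to 2500 and 2580 to 2740 CPM (counts scaled to the size of the library), whereas Twist1 was at 0 and Thy1 and Fap were at or near 0. The summed level of the 10 markers was 5510 to 5790 CPM in AOA+Asp and 5520 to 5560 CPM in HT-DNA+AOA+Asp, although Col1a2, Pdgfra and Pdgfrb, 3 of the 7 tested, were called lower with HT-DNA. The leukocyte genes Ptprc, Adgre1 and Itgam were at 0 in all 6 libraries, while Cd68 stood at 110 to 137 CPM and Cd74 at 11.5 to 14.4 CPM. Epithelial and endothelial markers summed to at most 1.11 and 2.36 CPM. In bulk RNA, fewer cells of a kind and less RNA per cell cannot be told apart, and the part of the marker differences in the results was not tested.

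With AOA and aspartate present, HT-DNA raised interferon-stimulated genes and chemokines, among them Cxcl10, Ccl5, Ifit1 and Oasl1, and lowered genes such as Klhl24, Pdcd4 and Hbp1. Of 14263 genes tested, 492 (3.45%) were called at an adjusted p under 0.05 by edgeR's quasi-likelihood test, 275 (1.93%) higher and 217 (1.52%) lower. The rises were the larger changes: 103 called genes changed at least 2-fold, of which 89 were higher and 14 lower. Over all genes the median absolute log2 fold change was 0.128, near the median standard error (SE) of 0.122. Without adjustment, 2208 genes (15.5%) had a p under 0.05. The number called depended on which libraries shared the estimate of spread. It was 1349 when the HT-DNA+AOA group, whose replicates differed most, was left out of the fit, an alternative added after the data were seen, and 1844 when only the 6 libraries entered, and both sets included all 492. When 1 of the 6 libraries was left out in turn, 235 genes were called without AOA+Asp replicate 3, the lowest count, and between 259 and 433 without each of the others. Of the 492 calls, 199 were made in all 6 of these fits.

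Gene lists of antiviral, stress, metabolic and growth functions were then counted. The lists were chosen with earlier results of these data known, so a share above that of all genes is not independent evidence. The background for each list is the share called over all genes, 1.93% higher and 1.52% lower. In the stress, metabolic and growth lists at most 4 members were called in any list, which in short lists can still exceed the share over all genes.

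**Figure D1:**
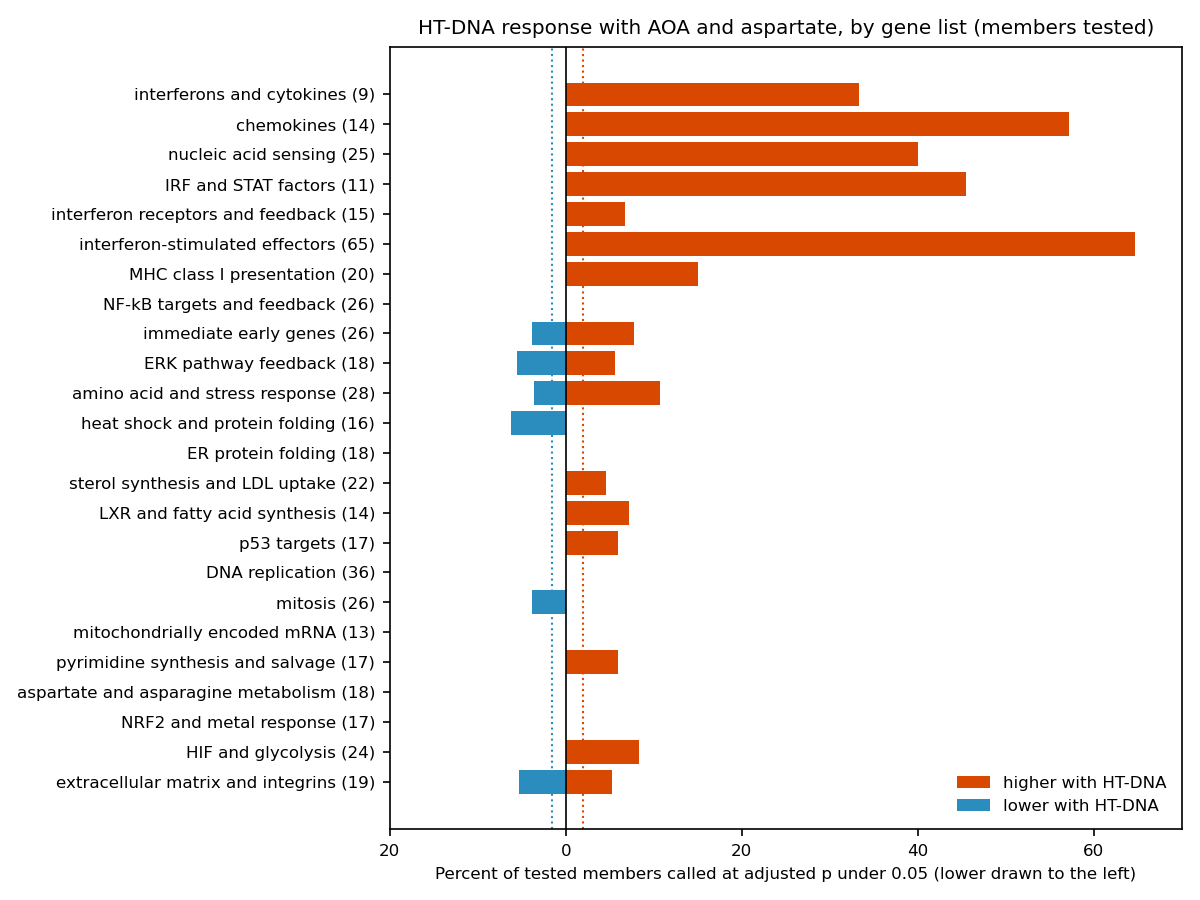
Percent of the tested members of 24 gene lists called at an adjusted p under 0.05 for HT-DNA+AOA+Asp against AOA+Asp, with members called higher drawn to the right and members called lower to the left; the number of members tested stands in parentheses and dotted lines mark the shares over all genes, 1.93% and 1.52%. Interferon-stimulated effectors reached 64.6% and chemokines 57.1%, and no list had more than 6.25% of its members called lower.

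Interferon-stimulated effectors, the proteins that block viral RNA, translation and membranes, made up the largest group of rises. Of 74 listed genes, 65 were tested, and 42 of these rose and none fell, against 1.93% and 1.52% of all genes. The other 9 (Ifit1bl1, Cmpk2, Ifi27l2a, Ifitm1, Parp12, Gbp4, Gbp6, Gbp9 and Gvin1) had too few counts. The median log2 fold change over the 65 was 1.39, and 1.38 with the 5 genes at 0 in AOA+Asp set at their lower bounds, beside -0.00196 over all genes. Those 5 passed the filter on low counts through other groups and could not fall. Effectors with few counts in AOA+Asp had little room to fall. Their summed level went from 948.4, 1002 and 979.3 CPM in AOA+Asp to 1672, 1713 and 1650 CPM in HT-DNA+AOA+Asp, with no overlap. Between 31 and 38 were called when 1 library was left out, with the lowest count without AOA+Asp replicate 3, and 28 were called in all 6 such fits. Where a gene had to hold at least 10 counts in every library, 26 effectors were called, beside 467 of all 11840 genes tested. That filter takes genes near 0 in AOA+Asp, such as Ifit3b and Rsad2, out of the test, so fewer effectors were tested.

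Ifit1, whose product binds viral RNA that lacks the host cap, was present at 0.233, 0.343 and 0.295 CPM in AOA+Asp and at 72.4, 73.3 and 70.4 CPM with HT-DNA. The log2 fold change was 7.93 (SE 0.316, edgeR adjusted p = 1.42e-16). Isg15, a ubiquitin-like modifier that is joined to other proteins during an interferon response, went from 1.07, 1.27 and 0.8 CPM to 37.6, 38.5 and 30.6 CPM, a log2 fold change of 5.09 (SE 0.253, edgeR adjusted p = 2.38e-12). The highest library without HT-DNA was thus far below the lowest library with it for both genes. Oasl1, an oligoadenylate synthetase-like protein, was at 1.82, 2.74 and 2.44 CPM and at 177, 185 and 170 CPM with HT-DNA. Its log2 fold change was 6.25 (SE 0.136, edgeR adjusted p = 5.27e-17).

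Several effectors were nearly silent in AOA+Asp, and their folds are given as ratios of summed counts with intervals that cover counting error only. Rsad2 encodes viperin, which makes an antiviral nucleotide. It had 1 count in each library of AOA+Asp and 304, 292 and 279 counts with HT-DNA, a 306-fold ratio (95% counting interval 104 to 1490). Ifit3b had no count in AOA+Asp and 93, 77 and 95 counts with HT-DNA, at least 92.6-fold higher against a floor of 3 counts over the group. For Gbp5, a guanylate-binding GTPase, the counts were 0 in each library and 20, 26 and 18 with HT-DNA, at least 22.4-fold higher. All 3 genes were called in the 6 fits that left out a library. Ifit3 rose by 5.51 (SE 0.404) and Oasl2 by 5.42 (SE 0.313) on the log2 scale. Ifit3 and Ifit3b are close copies, as are Oas1a and Oas1g or Tgtp1 and Tgtp2, so the division of reads between such pairs is uncertain.

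The 23 effectors that were not called included sparse genes and genes already expressed without HT-DNA. Slfn8 had a log2 fold change of -0.14. Mx1, the dynamin-like GTPase against influenza virus, was at 0, 0 and 0.0421 CPM without and 0.242, 0.144 and 0.142 CPM with HT-DNA. Ifit2, at 16.9, 15.7 and 15.8 CPM without and 23, 25.1 and 27 CPM with HT-DNA, missed the threshold although the groups did not overlap (log2 fold change 0.63, edgeR adjusted p = 0.0697). Non-overlap by itself was common, at 28.5% of all genes (13.7% with the HT-DNA libraries above and 14.8% below). Eif2ak2, the kinase PKR that halts translation, and Bst2 (tetherin) had log2 fold changes of 0.18 and 0.15.

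**Figure D2:**
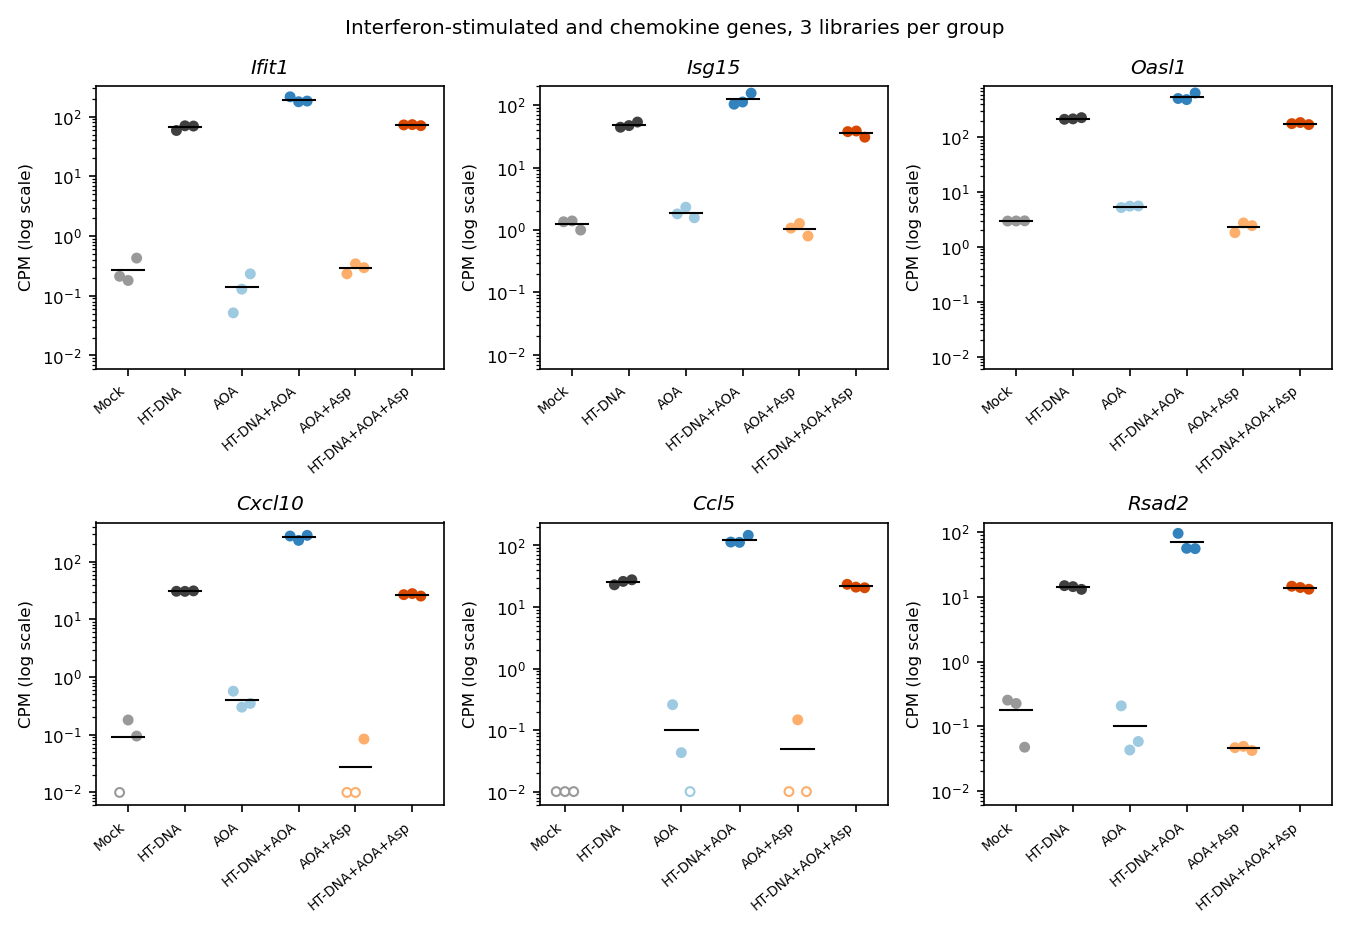
CPM on a log axis for Ifit1, Isg15, Oasl1, Cxcl10, Ccl5 and Rsad2 in each of 3 libraries of all 6 groups, with points for libraries, lines for group means and open points at the bottom for libraries with 0 counts. For all 6 genes the 3 HT-DNA+AOA+Asp libraries lie near the HT-DNA libraries and below the HT-DNA+AOA libraries.

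Of 14 chemokine genes tested (19 listed), 8 were called higher and none lower, against 1.93% and 1.52% of all genes. The median log2 fold change was 0.968, and 12 of the 14 values were positive. Ccl4 and Cxcl11 had no count in AOA+Asp and could not fall. With at least 10 counts required in every library, 4 were called, beside 467 of all 11840 genes tested. That filter takes genes near 0 in AOA+Asp, such as Cxcl10 and Ccl5, out of the test. Cxcl10, which draws activated T cells, had 0, 0 and 2 counts in AOA+Asp and 555, 582 and 536 counts with HT-DNA, an 877-fold ratio (95% counting interval 242 to 7250). Ccl5, another T cell attractant, had 0, 3 and 0 counts and then 483, 437 and 434, a 473-fold ratio (162 to 2300). The 2 genes were among the largest rises of the response. Ccl4 went from no count to 20, 21 and 11 counts, at least 18.2-fold higher. Cxcl11 went from no count to 13 counts over the group, and its call was kept only without AOA+Asp replicate 2 or HT-DNA+AOA+Asp replicate 2 (highest edgeR adjusted p 0.0745). The monocyte attractants Ccl2 and Ccl7 started at a substantial level. Ccl2 stood at 285, 252 and 220 CPM without and 476, 493 and 502 CPM with HT-DNA (log2 fold change 0.96, SE 0.0869, edgeR adjusted p = 7.24e-07), and Ccl7 rose by 1.14 (SE 0.0901). Cxcl1 and Cxcl2, neutrophil attractants, rose by 0.52 and 0.56. Without AOA, Cxcl2 fell by 0.32, and the difference between the 2 responses was 0.89 (SE 0.19, edgeR adjusted p = 0.0165). In all, 2 chemokines had a called positive difference from that response and 1 a negative one, against 3.24% and 3.01% of all genes. No positive one was called without AOA+Asp replicate 2. Of the 8 chemokine calls 6 were made in all 6 fits that left out a library.

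Few cytokine genes were measurable. Ifnb1, which encodes interferon-β, had 0 counts in all 3 AOA+Asp libraries and 1, 0 and 0 counts in HT-DNA+AOA+Asp, and was not tested. In the other groups it had 6, 4 and 2 counts in HT-DNA+AOA and none elsewhere. The depth therefore gave no estimate of interferon-β mRNA at 6 h. Of 9 cytokine genes tested (21 listed), Il6, Il33 and Csf1 rose and none fell, against 1.93% and 1.52% of all genes. Csf1, the macrophage growth factor, rose by 0.38 on the log2 scale (SE 0.0709, edgeR adjusted p = 0.00302). Il6 had log2 fold change 1.88 from 0.0467, 0.245 and 0.337 CPM to 0.774, 0.625 and 0.994 CPM, but its call was lost without AOA+Asp replicate 1 or HT-DNA+AOA+Asp replicate 3 (highest edgeR adjusted p 0.0718). That of Il33 was lost without AOA+Asp replicate 1 or 3 or HT-DNA+AOA+Asp replicate 2 or 3 (highest edgeR adjusted p 0.18).

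Promoters are shown for up to 2 called genes each of the effector, chemokine, immediate early and sterol lists, so that motif content can be set beside the change. The genes are those with the largest change among the members whose window the RefSeq table gave, with windows of 1 chromosome left out. Each promoter is the 250 bases before the annotated start, read 5′ to 3′ in the direction of the gene (RefSeq, GRCm38.p6). Capitals mark matches, on either strand, of the interferon-stimulated response element core (GAAA, any 2 bases, GAAA) or of the κB form (GGGA, any 4 bases, CC), and matches of the 2 motifs were allowed to overlap.
Ifit3b, chr19:34607707-34607956, plus strand: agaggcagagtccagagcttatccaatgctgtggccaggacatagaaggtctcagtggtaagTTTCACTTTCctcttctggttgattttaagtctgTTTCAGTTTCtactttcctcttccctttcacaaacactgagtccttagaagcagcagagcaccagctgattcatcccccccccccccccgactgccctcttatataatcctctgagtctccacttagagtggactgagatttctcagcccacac
Rsad2, chr12:26456453-26456702, minus strand: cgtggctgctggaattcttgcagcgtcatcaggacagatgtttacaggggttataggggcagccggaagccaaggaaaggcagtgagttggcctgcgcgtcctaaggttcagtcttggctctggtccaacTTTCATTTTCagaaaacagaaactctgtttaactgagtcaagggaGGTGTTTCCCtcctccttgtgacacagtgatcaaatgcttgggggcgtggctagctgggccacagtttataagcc
Cxcl10, chr5:92348890-92349139, minus strand: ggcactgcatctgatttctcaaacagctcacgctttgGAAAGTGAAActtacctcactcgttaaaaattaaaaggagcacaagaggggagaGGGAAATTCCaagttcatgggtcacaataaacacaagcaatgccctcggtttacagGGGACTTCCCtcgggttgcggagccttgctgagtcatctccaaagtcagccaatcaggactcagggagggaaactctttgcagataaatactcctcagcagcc
Cxcl2, chr5:90903649-90903898, plus strand: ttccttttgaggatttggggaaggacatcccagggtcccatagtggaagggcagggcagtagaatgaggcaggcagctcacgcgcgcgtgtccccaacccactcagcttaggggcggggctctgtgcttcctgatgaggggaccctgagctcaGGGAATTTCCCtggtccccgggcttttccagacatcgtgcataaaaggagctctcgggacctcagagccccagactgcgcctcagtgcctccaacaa
Fosl2, chr5:32136222-32136471, plus strand: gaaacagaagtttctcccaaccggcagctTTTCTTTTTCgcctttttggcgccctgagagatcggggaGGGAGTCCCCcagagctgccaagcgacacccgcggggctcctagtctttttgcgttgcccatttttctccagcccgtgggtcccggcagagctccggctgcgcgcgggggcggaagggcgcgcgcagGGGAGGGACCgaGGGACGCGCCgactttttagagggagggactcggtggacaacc
Lss, chr10:76531355-76531604, plus strand: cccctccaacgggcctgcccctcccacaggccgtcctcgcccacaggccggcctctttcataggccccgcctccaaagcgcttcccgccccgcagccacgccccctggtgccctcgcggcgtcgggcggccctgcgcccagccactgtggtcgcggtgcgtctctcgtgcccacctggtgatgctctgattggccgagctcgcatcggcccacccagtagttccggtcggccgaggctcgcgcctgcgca
Ifit3b held 2 matches of the first motif and none of the κB form. Rsad2 held 1 of each, Cxcl10 held 1 response element and 2 κB matches, and Cxcl2 held 2 overlapping κB matches and no response element. Fosl2, which fell with HT-DNA, held 1 response element and 3 κB matches, and Lss held neither. Over all 32851 windows of the table, 2.98% held a response element and 17.6% a κB match. Of the 206 genes called higher that have a window, 17.5% held a response element, against 1.21% of the 165 called lower and 2.7% of the 9840 tested. Within the effector list the motif stood in 58.8% of the 34 called members with a window and in 44.4% of the 18 that were not called. The κB form stood in 24.3% of the genes called higher and in 21.2% of those called lower, near its 21.9% of the 9840 tested. Such matches describe the letters of a window and show no binding.

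Genes that sense nucleic acids rose in part. Of 25 tested, 10 were called higher and none lower (median 0.0827), against 1.93% and 1.52% of all genes. The 10 were Ifih1, Rigi, Dhx58, Zbp1, Trex1, Adar, Mlkl, Ticam1, Trim21 and Trim25. Of the 10 calls 7 were made in all 6 fits that left out a library. Ifih1, the RNA sensor MDA5, went from 0.56, 0.294 and 0.674 CPM to 17.9, 16.7 and 17 CPM (log2 fold change 5.04, SE 0.345, edgeR adjusted p = 1.21e-10). Zbp1, a sensor of Z-form nucleic acid that engages RIPK3, went from 1, 1 and 2 counts to 36, 29 and 43 counts, a 28.3-fold ratio (95% counting interval 10.7 to 106). Rigi, the RNA sensor RIG-I, stood at 6.2, 6.56 and 5.98 CPM and at 27.1, 27.2 and 25.7 CPM (log2 fold change 2.10, SE 0.156), and Dhx58 (LGP2) rose by 2.78 (SE 0.129). These 4 genes were called in all 6 fits that left out a library. They did not overlap between groups, which in this direction held for 13.7% of all genes. Cgas itself had a log2 fold change of 0.35 (SE 0.14, edgeR adjusted p = 0.219), Sting1 of -0.16, Tbk1 of -0.21 and Irf3 of -0.03, and none of these 4 was called.

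Of 11 IRF and STAT genes tested, 5 rose (median 0.376), against 1.93% of all genes. Stat2 rose by 1.07 (SE 0.0989, edgeR adjusted p = 9.14e-07) and Irf9 by 0.92 (SE 0.0848, edgeR adjusted p = 7.6e-07). Irf9 stood at 13.2, 13.3 and 14 CPM without and 27.5, 26.4 and 23.2 CPM with HT-DNA. Irf1 rose by 0.60. Irf7, the factor that amplifies interferon genes, rose by 0.71 (edgeR adjusted p = 0.021), but the call was kept only without AOA+Asp replicate 2 (highest edgeR adjusted p 0.134 over the 6 fits). The weakest of the 5 calls was Irf5 (1.13, edgeR adjusted p = 0.048), which was lost in all 6 such fits (up to 0.25). Of 15 receptor and feedback genes, Usp18, the protease that removes ISG15 and restrains the interferon receptor, was the 1 called, from 0.513, 0.783 and 0.716 CPM to 4.59, 4.04 and 3.31 CPM (log2 fold change 2.56, SE 0.272, edgeR adjusted p = 1.52e-06).

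Of 20 class I presentation genes, H2-T22, H2-T23 and Tapbp rose, by 0.49, 0.58 and 0.30, where 1.93% of all genes rose. The call of H2-T22 held in all 6 fits that left out a library, that of H2-T23 held only without HT-DNA+AOA+Asp replicate 1 (highest edgeR adjusted p 0.144) and that of Tapbp in none (0.197). B2m and H2-K1 had log2 fold changes of -0.02 and 0.05. Of 26 NF-κB targets none was called in either direction (median 0.0741), by edgeR or DESeq2, and 7 had an unadjusted p under 0.05, with Nfkbia at 0.08 (SE 0.0911) and Tnfaip3 at 0.08 (SE 0.166). The same list had 5 calls when only the 6 libraries entered the fit, where 1844 of all 14263 genes were called. It holds none of the chemokine and cytokine genes described above. Without AOA 13 of the 26 were called higher and 4 lower, against 24.2% and 24% of all genes. With AOA alone 8 were called higher and none lower, against 6.46% and 6.98%.

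Among the genes called lower, the 10 largest falls without overlap between the groups are described here. Klhl24, an adaptor of a cullin ubiquitin ligase, went from 38.3, 29.4 and 31.9 CPM to 12.9, 14.6 and 12.5 CPM (log2 fold change -1.32, SE 0.145, edgeR adjusted p = 9.93e-06). Pdcd4, an inhibitor of translation initiation, went from 22.3, 17.1 and 20 CPM to 7.59, 7.65 and 8.9 CPM (-1.30, SE 0.136, edgeR adjusted p = 5.01e-06). Mxd4, a Max partner that opposes Myc, fell by 1.06 (SE 0.12), and Hbp1, an HMG-box repressor, by 1.03 (SE 0.0832, edgeR adjusted p = 1.28e-07). The rule that named these genes required that the groups did not overlap. Crebrf, a regulator of CREB3, fell by 1.02, Fbxl20, an F-box protein, by 1.02, and Tcp11l2 by 1.13. These 7 calls were made in all 6 fits that left out a library. Those of Coq8a (-1.08), Eif1ad10 (-1.14) and Mturn (-1.11) were not. Coq8a was lost without AOA+Asp replicate 3 or HT-DNA+AOA+Asp replicate 1 or 3 (up to 0.0718), Eif1ad10 was kept only without AOA+Asp replicate 1 or HT-DNA+AOA+Asp replicate 3 (up to 0.113), and Mturn was kept only without replicate 2 of either group (up to 0.138). Of the 217 genes called lower, 6 were in any of the 24 lists, against 85 of the 275 called higher and 508 of all 14263 tested.

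**Figure D3:**
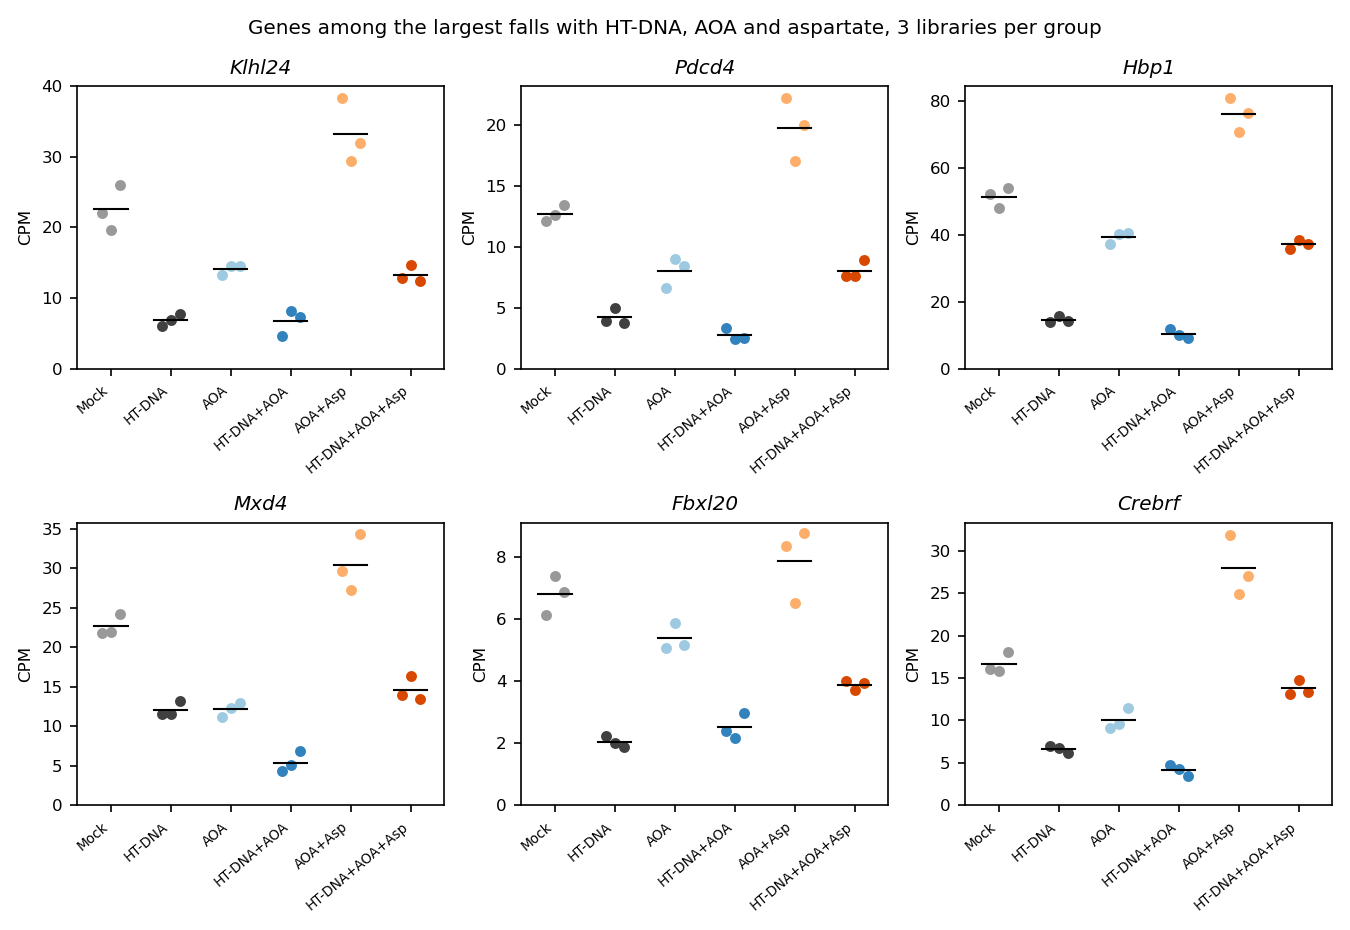
CPM for Klhl24, Pdcd4, Hbp1, Mxd4, Fbxl20 and Crebrf in each of 3 libraries of all 6 groups (points) with group means (lines). The genes were chosen for lying higher in AOA+Asp than in HT-DNA+AOA+Asp without overlap, and the mean of AOA+Asp is the highest of the 6 groups in each panel.

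The levels from which these genes fell were high. The mean of Hbp1 was 76.1 CPM in AOA+Asp, against 51.4 in Mock and 39.4 in AOA, and its mean after HT-DNA was 37.2 CPM with AOA and aspartate, 14.6 without AOA and 10.4 with AOA alone. For Crebrf the means without HT-DNA were 28, 16.6 and 10 CPM in the same order, and with HT-DNA 13.8, 6.65 and 4.14 CPM. The differences in the levels without HT-DNA were not tested here.

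In the lists of growth, metabolism and stress, calls made up 14.3% of the amino acid and stress response genes, 11.5% of the immediate early genes, 11.1% of the ERK feedback genes, 10.5% of the matrix genes and 8.33% of the glycolysis genes, against 3.45% of all genes, and each rests on 2 to 4 genes. Among 26 immediate early genes, Egr1 and Myc rose and Fosl2 fell. Fosl2, an AP-1 subunit, went from 122, 107 and 128 CPM to 92.2, 85.2 and 82.3 CPM (-0.46, SE 0.071, edgeR adjusted p = 0.00054). Egr1 rose by 1.09 from 1.35, 2.06 and 1.43 CPM to 3.58, 3.42 and 3.27 CPM, and its call was lost without AOA+Asp replicate 3 (edgeR adjusted p 0.0535). Myc rose by 0.29, and its call was kept only without AOA+Asp replicate 2 or HT-DNA+AOA+Asp replicate 3 (up to 0.111). Of 18 ERK feedback genes, the phosphatase Dusp4 rose by 0.38 (SE 0.0685) and Dusp1 fell by 0.53 (SE 0.102), both in all 6 fits. Of 28 amino acid and stress response genes, Ppp1r15a, which ends the eIF2α block of translation, rose by 0.42 (SE 0.0703, edgeR adjusted p = 0.00138), again in all 6 fits. The calls of Slc3a2 (0.26) and Slc38a2 (-0.38) in that list were lost in each of them (up to 0.198), and Sesn2 (0.33) was kept only without AOA+Asp replicate 2 (up to 0.215).

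Hk2, a hexokinase at the head of glycolysis, rose by 0.48 (SE 0.0866, edgeR adjusted p = 0.00256) and Pfkfb3 by 0.64 among 24 hypoxia and glycolysis genes. Aen, an exonuclease induced by p53, rose by 0.36 among 17 p53 targets. Col1a2, a collagen chain, fell by 0.34 among 19 matrix genes. The calls of Hk2, Aen and Col1a2 were made in all 6 fits that left out a library. That of Pfkfb3 was kept only without AOA+Asp replicate 1 or 2 (up to 0.154). Hspa1b fell by 0.71 among 16 heat shock genes, was the 1 call there, and was lost without AOA+Asp replicate 3 or HT-DNA+AOA+Asp replicate 2 or 3 (up to 0.186). Nusap1 fell by 0.64 among 26 mitosis genes, and its call was lost without AOA+Asp replicate 1 or 3 or HT-DNA+AOA+Asp replicate 1 (up to 0.0905).

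No gene of DNA replication (36 tested), endoplasmic reticulum folding (18), the NRF2 response (17), mitochondrially encoded mRNA (13) or aspartate and asparagine metabolism (18) was called. At an unadjusted p under 0.05 there were 5, 3, 4, 1 and 1 genes in these lists. By DESeq2, 1 gene of the DNA replication list was called and none of the other 4. The median log2 fold changes of the 5 lists lay between -0.0839 and 0.0822. Got2, the mitochondrial aspartate aminotransferase, stood at 324, 351 and 329 CPM without and 352, 341 and 342 CPM with HT-DNA (0.04, SE 0.0682). Gpt2, the mitochondrial alanine aminotransferase, had a log2 fold change of 0.08 (SE 0.0628) and Cad, which starts pyrimidine synthesis from aspartate, of 0.14 (SE 0.0764). Ctps, which makes CTP, was the 1 call among 17 pyrimidine genes (0.28), and it was lost without AOA+Asp replicate 3 or HT-DNA+AOA+Asp replicate 1 or 2 (up to 0.0923). Fasn was the 1 call among 14 fatty acid and LXR genes (0.35), kept only without AOA+Asp replicate 2 (up to 0.14).

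The response was then set beside the HT-DNA response without AOA (HT-DNA against Mock) and that with AOA alone (HT-DNA+AOA against AOA). The 3 comparisons share no library. In the response without AOA 6879 genes (48.2%) were called, 24.2% higher and 24% lower, and with AOA alone 1917 (13.4%), 6.46% higher and 6.98% lower. Of the 275 genes called higher with AOA and aspartate, 235 (85.5%) were also higher without AOA, which is 6.8% of the 3454 higher there, and 199 (72.4%) were also higher with AOA alone, 21.6% of 922. Of the 217 called lower, 181 (83.4%) were lower without AOA (5.28% of 3425) and 140 (64.5%) with AOA alone (14.1% of 995). Over all 14263 genes, the log2 fold changes correlated with those without AOA at r = 0.486 and with those with AOA alone at r = 0.51. Over the 9943 genes of at least 5 CPM the values were 0.728 and 0.828. These are correlations across genes, which are not independent replicates.

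The differences between responses were tested as interactions in the same fit. Compared with the response without AOA, 891 genes (6.25%) differed, 462 towards a more positive and 429 towards a more negative change. Compared with the response with AOA alone, 150 (1.05%) differed, 38 more positive and 112 more negative. The first count was 4147 when the HT-DNA+AOA group was left out of the fit. It was between 132 and 1127 when 1 library was left out, with the lowest count without AOA+Asp replicate 2, so the number depended on which libraries entered. The second count was between 69, without AOA replicate 2, and 419, without HT-DNA+AOA replicate 3. Scaling to library totals in place of the TMM method moved the share of more positive differences from 51.9% to 78.4%.

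Of the 65 interferon-stimulated effectors, 24 responded less with AOA and aspartate than with AOA alone. In the response with AOA alone 62 of the 65 rose, where 6.46% of all genes rose. The median log2 fold change over the 65 was 3.14, against 1.39 with aspartate added. The difference was negative for 61 of the 65 and its median was -1.23, beside 0.0116 over all genes. It was called negative for 24 and positive for none (background 0.785% and 0.266%), and for 17 to 32 when 1 library was left out, with the lowest count without AOA replicate 2. The HT-DNA+AOA libraries, whose summed effector level ranged from 3457 to 4086 CPM, were those with the widest spread. Irf7 was among the factors with the clearest difference: it went from 2.78 to 24.3 CPM with AOA alone and from 2.37 to 3.87 CPM with AOA and aspartate, a difference of -2.42 (SE 0.229, edgeR adjusted p = 1.91e-05). Of the 11 IRF and STAT genes 6 had a called negative difference in the full fit and in each of the 12 fits that left out a library, with Irf9 at -1.19 and Stat2 at -1.48.

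Among the sensors, Tlr3, the endosomal receptor of double-stranded RNA, went from 0.151 to 1.31 CPM with AOA alone. It stood at 0.513, 0.832 and 0.969 CPM without and 0.339, 0.481 and 0.757 CPM with HT-DNA when aspartate was present, a difference of -3.63 (SE 0.58, edgeR adjusted p = 0.00121). Rigi differed by -1.28 and Trex1, a DNA exonuclease, by -2.02. For the chemokines Cxcl10 and Ccl5 no difference was called, although the means after HT-DNA were 26.7 and 21.6 CPM with aspartate and 267 and 124 CPM with AOA alone. These means are levels, which also depend on the level before HT-DNA, whereas the test compares folds. Over the 14 chemokines the difference of log2 fold changes lay between -1.87 and 0.165. The counts without HT-DNA are low for both genes, and the SE of the difference was 1.11 and 1.34. The part of the level before HT-DNA was not tested.

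Compared with the response without AOA, few effectors differed past the test. The median difference was 0.364, beside 0.00637 over all genes, with 47 of the 65 positive. A positive difference was called for 2 of the 65, among them Ifi44, and a negative one for none, against 3.24% and 3.01% of all genes. Over the 12 fits that left out 1 library the positive count was 0 to 3, and it was 0 whichever Mock library was left out. It was 13, beside 2 negative differences, when the HT-DNA+AOA group was left out of the fit. In that fit 2051 of all 14263 genes had a called positive difference and 2096 a negative one. Ifit1 changed by 7.93 and 7.90 in the 2 responses (difference 0.02, SE 0.452), Isg15 by 5.09 and 5.26, and Rtp4 by 4.07 and 4.03. After HT-DNA the means were 72 and 65.9 CPM for Ifit1 with AOA and aspartate and without AOA, 26.7 and 30.9 CPM for Cxcl10, and 21.6 and 25.6 CPM for Ccl5. A p that misses the threshold does not show that these responses were equal.

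**Figure D4:**
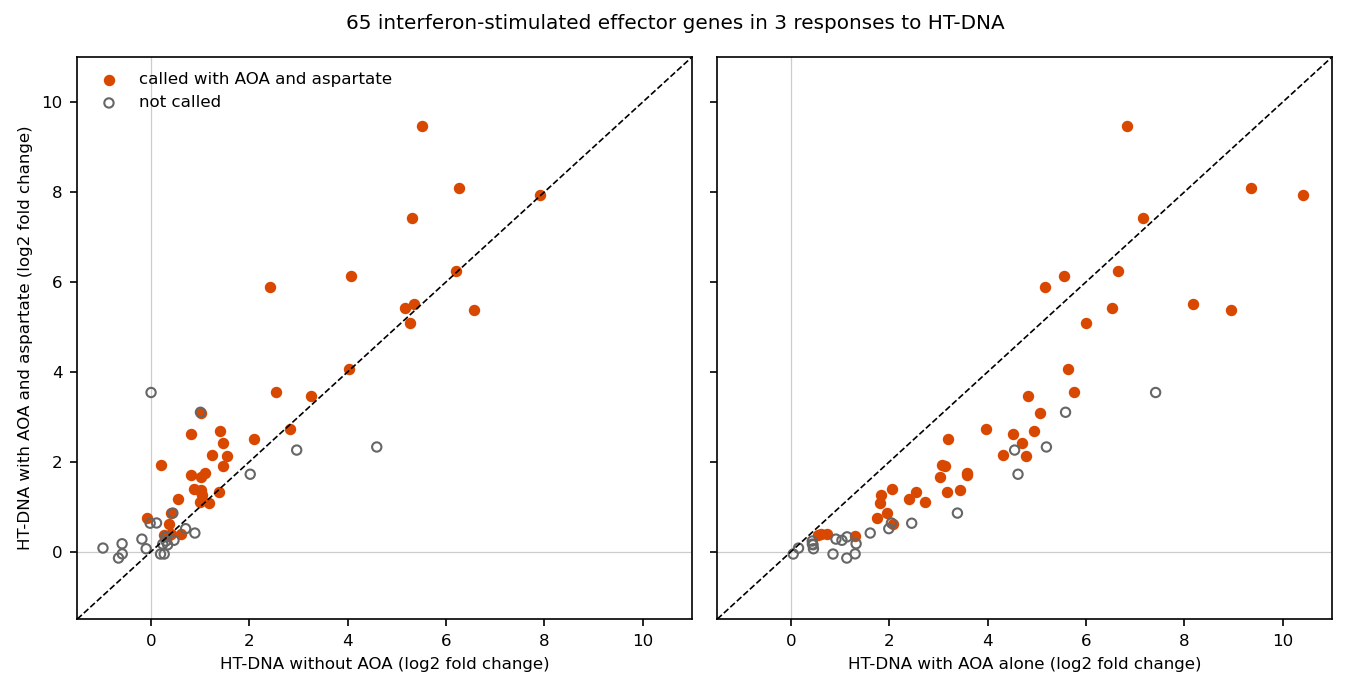
log2 fold changes with HT-DNA of the 65 tested interferon-stimulated effectors in cells with AOA and aspartate (vertical) against cells without AOA (left) and with AOA alone (right), with filled points for genes called with AOA and aspartate, open points for the others and a dashed line of equal change. In the right panel 61 of 65 points lie below the line, and the fitted values of genes with no count in AOA+Asp, such as Ifit3b, depend on the prior count of the fit.

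Of 22 sterol synthesis and LDL uptake genes, 15 fell without AOA (median -0.311) and none with AOA and aspartate, where Lss was the 1 called and rose (median 0.0863). With AOA alone none fell either and 7 rose (median 0.0932). Over all genes 24% fell without AOA and 1.52% with AOA and aspartate, and with AOA alone 6.98% fell and 6.46% rose. The summed level of the list before HT-DNA was 1489, 1571 and 1549 CPM in AOA+Asp and 1485, 1462 and 1487 CPM in AOA, against 2718, 2690 and 2712 CPM in Mock, so both groups with AOA started lower. The part of this level in the differences was not tested. The difference was called positive for 11 of the 22 and negative for none, against 3.24% and 3.01% of all genes, and for 8 to 12 when 1 library was left out. Hmgcs1, an early enzyme of cholesterol synthesis, was at 49.6, 42.4 and 52.4 CPM without and 42, 44.8 and 41.9 CPM with HT-DNA. Its mean fell from 86.5 to 40.1 CPM without AOA, and the difference was 0.94 (SE 0.162, edgeR adjusted p = 0.00492). Insig1, a sterol-regulated brake on the pathway, differed by 0.79 (SE 0.1). Lss, lanosterol synthase, rose from 71.3, 73.1 and 72.3 CPM to 85, 86.5 and 87.2 CPM (0.26, SE 0.0529, edgeR adjusted p = 0.00832) and was called in all 6 fits that left out a library, but not with no filter on low counts (0.124). It fell by 0.32 without AOA, and the difference was 0.57 (SE 0.0743). Of the 14 fatty acid and LXR genes, 9 fell without AOA and 2 with AOA alone, against 24% and 6.98% of all genes. A positive difference was called for 6, among them the desaturase Scd2 with 1.17 (SE 0.126), and a negative one for Nr1h2, the sterol receptor LXRβ, with -0.43 (SE 0.123). The positive count was between 1 and 7 when 1 library was left out, with the lowest count without Mock replicate 1. The difference from the response with AOA alone was called for none of the 14, against 1.05% of all genes.

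**Figure D5:**
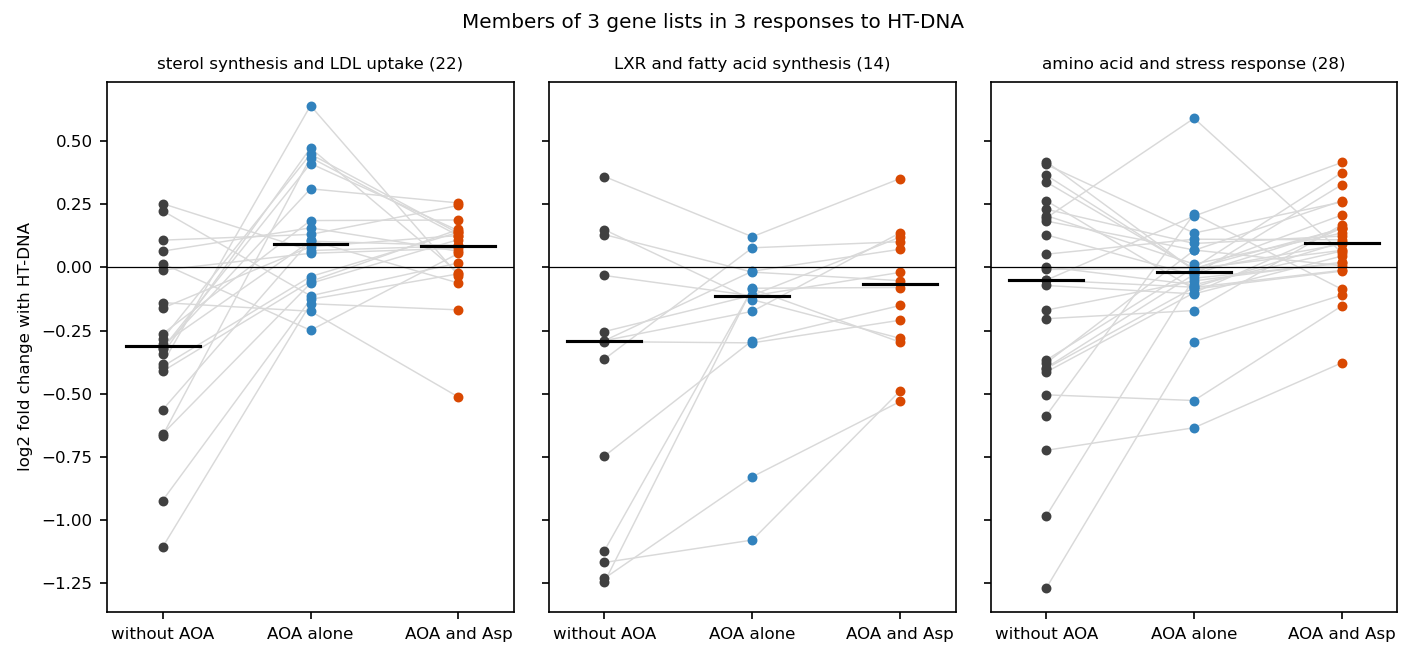
log2 fold changes with HT-DNA of each tested member (points, joined by gene) of the sterol, fatty acid and amino acid stress lists in cells without AOA, with AOA alone and with AOA and aspartate, with medians as black lines. The sterol median lies at -0.311 without AOA and at 0.0863 with AOA and aspartate.

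Of the 28 amino acid and stress response genes, 10 had a called positive difference from the response without AOA and none a negative one, against 3.24% and 3.01% of all genes. The positive count was between 4 and 10 when 1 library was left out, with the lowest count without Mock replicate 1. With AOA alone 1 of the 28 rose and 2 fell (median -0.0191), against 6.46% and 6.98% of all genes. The difference from that response was called positive for none of the 28 and negative for 1. Slc7a11, the cystine transporter, changed by 0.02 on the log2 scale with AOA and aspartate and by -0.98 without AOA (difference 1.00, SE 0.163, edgeR adjusted p = 0.00367). Vldlr differed by 1.16 (SE 0.16) and Gpt2, from the aspartate list, by 0.61 (SE 0.0892, edgeR adjusted p = 0.00164). In the other direction, Id3, an inhibitor of basic helix-loop-helix factors, stood at 17.8, 21.6 and 20.8 CPM without and 16.9, 16.9 and 15.8 CPM with HT-DNA. Without AOA its mean went from 5.63 to 17.6 CPM, and the difference was -1.93 (SE 0.231, edgeR adjusted p = 0.000359). Atoh8, a helix-loop-helix factor, differed by -1.24 (SE 0.212). For Gpt2, Id3 and Atoh8 no difference from the response with AOA alone was called.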

How the data were processed

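RNA of L929 cells was sequenced in 6 groups of 3, described by the study as biological replicates. The authors deposited 1 table of estimated read counts per gene (expected counts, 57180 genes), in which 11.6% of the values are not whole. The aligner, counter and genome build are not given in the sources used here, and strand handling is not either, so overlapping and antisense genes are uncertain. The deposited group means were not used, nor any other column. The design planned for whole counts, so values were rounded before edgeR's quasi-likelihood test (edgeR 4.0.16, limma 3.58.1, R 4.3.3; robust fit of all 18 libraries, TMM scaling, filterByExpr with minimum count 10 and minimum total 15), which left 14263 genes. P-values were adjusted by Benjamini-Hochberg over these genes and called under 0.05. CPM were computed with TMM-scaled totals. SE are Wald standard errors. Differences between responses are interaction terms. Genes near 0 are given as ratios of counts with exact 95% intervals, or as lower bounds against 3 counts, and both cover counting error only. The pipeline was tested on simulated data. Promoters were read with Python 3.11.15, the first window per gene, and figures drawn with matplotlib 3.10.9.

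The members and gene lists were chosen with earlier results of these data known. Named genes are, per list, up to 4 called members with the largest absolute log2 fold change; Ifnb1, Cxcl10, Ccl5, Ifit1, Isg15, Zbp1, Got2, Gpt2 and Cad; the 10 largest rises and 10 largest falls among called genes whose higher group averaged 1 CPM or more, with no overlap and a gene symbol that is not a model name; and the 5 most positive and 5 most negative differences from each other response. Other genes named were chosen after their values were seen. Alternatives were RLE scaling, library totals, DESeq2 1.42.0, other count filters, a fold threshold, fits of only the libraries compared, a replicate block and leaving out each library. Leaving the HT-DNA+AOA group out was added after the data were seen. A few genes that these rules name are not reported here.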

Additional observations from a re-analysis of the deposited data

Results flagged for a closer look

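The response with AOA and aspartate differed from the 2 other HT-DNA responses in a number of genes, by the interaction term of edgeR's quasi-likelihood fit. Against the response without AOA 891 of 14263 genes differed, and against the response with AOA alone 150. Values are differences of log2 fold changes, positive where the change with AOA and aspartate was the more positive. Groups of 3 are too small to look for single outlying libraries.

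Against the response without AOA, the positive differences among the named genes were Or5ac22 1.95, Plscr4 1.92, Dapk1 1.89, Ptafr 1.85, Ifi44 1.79, Mturn 1.59, Rigi 0.832, Hbp1 0.783, Fbxl20 0.723, Gpt2 0.608, Dusp4 0.579, Lss 0.574 and Ppp1r15a 0.466. Of these, Hbp1, Gpt2, Dusp4 and Lss were called in all 12 fits that left out 1 library. Ptafr, the receptor of platelet-activating factor, averaged 0.396 CPM in AOA+Asp and 2 CPM in HT-DNA+AOA+Asp, against 0.682 and 0.957 CPM in Mock and HT-DNA. The calls of Fbxl20 were lost in all 12 fits (edgeR adjusted p up to 0.132), of Ifi44 in all but that without HT-DNA replicate 2 (0.0915), and of Plscr4 in all but that without AOA+Asp replicate 1 (0.124). Those of Or5ac22 were kept without HT-DNA replicate 2 or HT-DNA+AOA+Asp replicate 3 (otherwise up to 0.105), of Mturn without AOA+Asp replicate 3 or HT-DNA replicate 2 (0.109), of Rigi without Mock replicate 3 or HT-DNA replicate 2 (0.0992) and of Ptafr without Mock replicate 2 or AOA+Asp replicate 1 (0.145). Dapk1 was lost in 7 of 12 fits (0.0777) and Ppp1r15a without Mock replicate 1 or HT-DNA+AOA+Asp replicate 1 (0.0617).

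The negative differences against the response without AOA were Id3 -1.93, Dusp28 -1.66, Hotairm1 -1.38, Klk10 -1.34 and Atoh8 -1.24. Id3 and Atoh8 were called in all 12 fits that left out 1 library. Klk10, a secreted protease, averaged 3.75 and 4.23 CPM without and with HT-DNA when AOA and aspartate were present, against 2.75 and 7.9 CPM in Mock and HT-DNA. Its call was lost without Mock replicate 1, AOA+Asp replicate 2, HT-DNA replicate 3 or HT-DNA+AOA+Asp replicate 2 (edgeR adjusted p up to 0.0544). Hotairm1 was lost in all 12 fits (0.134) and Dusp28 in 6 (0.0945).

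Against the response with AOA alone, the positive differences were Mnt 1.22, Herpud1 0.919, Hbp1 0.891, Ubald1 0.885 and Pnrc1 0.811. Mnt, a partner of Max that represses Myc targets, averaged 20.6 and 15.6 CPM in AOA+Asp and HT-DNA+AOA+Asp, against 20.7 and 6.74 CPM in AOA and HT-DNA+AOA. Herpud1, a component of endoplasmic reticulum protein degradation, averaged 131 and 138 CPM, against 93.7 and 52 CPM. Ubald1 was lost without AOA replicate 2, AOA+Asp replicate 1 or HT-DNA+AOA+Asp replicate 2 (edgeR adjusted p up to 0.0605), and the 4 others were called in all 12 fits.

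The negative differences against the response with AOA alone were Tlr3 -3.63, Plekha4 -3.21, Igtp -2.63, Phf11d -2.53, Ifit1 -2.49, Irf7 -2.42, Usp18 -2.2, Stat2 -1.48, Rigi -1.28, Irf9 -1.19 and Dhx58 -0.753. Igtp, an interferon-induced GTPase, averaged 0.378 and 1.69 CPM with AOA and aspartate, against 0.387 and 10.7 CPM with AOA alone. Dhx58 was lost in 8 of 12 fits (edgeR adjusted p up to 0.184), Ifit1 without AOA replicate 1 or 2 or any AOA+Asp replicate (0.0979) and Igtp without AOA+Asp replicate 3 (0.0594). The other 8 were called in all 12 fits.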

How the results depend on the processing

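No named gene changed direction past the test under any alternative. The balance of calls did turn. Higher calls outnumbered lower ones in the response with AOA and aspartate (275 and 217), but not with only the 6 libraries (845 and 999), without the HT-DNA+AOA group (647 and 702) or with no filter on low counts (329 and 336). With AOA alone, 48.1% of the calls were higher, against 52.8% with RLE scaling and 51.3% by DESeq2. The 492 calls became 103 when a fold threshold (at least 1 on the log2 scale) was added, 1844 with only the 6 libraries in the fit (45.8% of them higher, against 55.9%), 1349 without the HT-DNA+AOA group (an alternative added after the data were seen) and 235 to 433 when 1 library was left out. With RLE scaling, library totals, no filter on low counts, at least 10 counts in every library or DESeq2 the count was 467 to 732. The cause of the larger moves was not tested, beyond that the fits differ in which libraries set the spread.

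The response without AOA gave 623 calls at the fold threshold and 5458 to 6685 when 1 library was left out. The response with AOA alone gave 264 and 1079 to 4175, and 391 with only its own libraries. The difference from the response without AOA gave 1906 by DESeq2, 2192 with no filter, 96 at the fold threshold, 4378 with only the libraries compared, 4147 without the HT-DNA+AOA group and 132 to 1127 when 1 library was left out. The difference from the response with AOA alone gave 322, 303, 54 and 65 in the first 4 of these settings and 69 to 419 in the last. Library totals in place of TMM shifted the median of the response without AOA by -0.11 (log2), with 35.2% of its calls higher against 50.2%. The positive share of the differences from it moved from 51.9% to 78.4%.

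Of the effectors, 26 were called with at least 10 counts in every library and 31 to 38 when 1 library was left out. Of the chemokines, 4 were called with at least 10 counts in every library, 5 at the fold threshold and 6 to 7 when 1 library was left out. Over all genes, 467 of 11840 tested were called with at least 10 counts in every library. Of 14263 genes, 103 were called at the fold threshold and 235 to 433 when 1 library was left out.

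Same-numbered libraries of AOA+Asp and HT-DNA+AOA+Asp correlated at -0.23, -0.21 and -0.22 in their deviations from the group means, which gave no sign of pairing in these groups. For AOA and HT-DNA+AOA the values were 0.582, 0.00687 and 0.286. Deviations from a mean of 3 libraries depend on each other, so these values cannot settle whether the numbers pair the samples. With a replicate block 491 genes were called, and 5 named results were no longer called. Among them were the changes with AOA and aspartate of Mnt (edgeR adjusted p 0.0558), Il33 (0.0527), Sesn2 (0.0504) and Slc3a2 (0.0551). That change of Mnt, as opposed to its difference from the response with AOA alone, was -0.40 in the main fit (edgeR adjusted p 0.0444). Over all named results, leaving out 1 library kept 656 values on their side of the threshold and ended 226 calls. At this depth genes such as Cxcl11 and Ifnb1 rest on few counts, and their folds are bounds or not given.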

Other observations

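Of 24 hypoxia and glycolysis genes, 23 had a positive log2 fold change with HT-DNA when AOA and aspartate were present, although Hk2 and Pfkfb3 were the 2 called. Their median was 0.124, beside -0.00196 over all genes. Without AOA 15 of the 24 had a positive value (median 0.239). There 12 were called higher and 2 lower, against 24.2% and 24% of all genes. With AOA alone 17 had a positive value (median 0.0516) and none was called, against 13.4% of all genes. Of 26 mitosis genes 2 had a positive value (median -0.131), with Nusap1 called lower. When the HT-DNA+AOA group was left out of the fit 6 were called lower, as were 702 of all 14263 genes. In the fit of all libraries the mitosis median was -0.0979 without AOA and -0.153 with AOA alone. Of 17 pyrimidine genes 15 had a positive value (median 0.133) and Ctps was called. In the response without AOA 12 were called higher (median 0.403), against 24.2% of all genes. With AOA alone 13 had a positive value (median 0.0891) and 2 were called higher, against 6.46% of all genes. The difference from the response without AOA was called for 3 of the 17, all negative, against 3.01% of all genes called negative.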
